A study of Mus musculus with 18 samples.

Results

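A set of 10 genes of the CD40 and NF-kB pathway was scored in KDM2A and H3K36me2 ChIP-seq peak lists from cultured mouse B cells. They were taken by symbol (Cd40, Traf2, Traf3, Traf6, Nfkb1, Nfkb2, Rel, Rela, Relb and Nfkbia), and all 10 were found among the 21938 protein-coding genes of the GENCODE M21 annotation (GRCm38). The rule names genes and uses no peak value. The pathway was of interest because the cells were stimulated through CD40. ChIP-seq (chromatin immunoprecipitation followed by sequencing) locates DNA bound by a protein or carrying a histone mark. KDM2A is a histone demethylase that removes methyl groups from lysine 36 of histone H3, and H3K36me2 is the dimethylated form of that lysine. The cells were splenic B cells, enriched by removal of CD43-, Ter119- and CD4-bearing cells, from C57BL/6 mice that were Mir155-sufficient (WT) or Mir155-deficient (KO). Both genotypes were treated alike: culture lasted 2 days in 1% oxygen, with the CD40 antibody at 1 µg/ml, F(ab')2 anti-IgM at 5 µg/ml, and IL-4 at 4 ng/ml. Each genotype gave 3 libraries per antibody, of which replicate 1 was male and replicates 2 and 3 were female, so that 12 peak lists were scored. No unstimulated culture and no culture without anti-CD40 was among these samples, so all values describe stimulated cells, and the labels name no restriction of the Mir155 loss to B cells.

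CD40 is a receptor of the TNF receptor family on B cells that receives help from T cells through CD40 ligand. Its cytoplasmic tail recruits the TRAF adaptors, of which TRAF2 and TRAF6 pass the signal on to the kinases of the canonical NF-kB pathway, while TRAF3 holds the non-canonical pathway in check in resting cells. The NF-kB subunits (products of Nfkb1, Nfkb2, Rel, Rela and Relb) then enter the nucleus as dimers and bind short DNA motifs called kappaB sites, and NFKBIA (IkB-alpha) holds the canonical dimers in the cytoplasm and is itself encoded by a target gene. KDM2A carries a CXXC zinc finger that binds unmethylated CpG dinucleotides, which are dense in CpG islands at many gene starts.

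The gene starts of these genes ranged from CpG-poor to among the densest in the genome. In the 500 bp around the gene start, the median was 52.5 CpGs over the 10 genes and 23 over 21930 protein-coding genes. Traf3 had the most, 92 (percentile 99.9 of all genes), and Nfkb1 and Rela had 64 each. Nfkbia had 29, Nfkb2 20 and Cd40 15, so that Cd40, the receptor gene, stood at percentile 40.8. RefSeq promoter sequences (GRCm38.p6, 250 bases before the start) were matched for 7 of the 10 genes, with 9 promoters because Nfkb2 has 3. Those 3 lie downstream of the Nfkb2 gene start used above and held 21, 19 and 14 CpGs, against a median of 6 over all promoters. Cd40, Nfkb1 and Relb were not matched. The loose kappaB pattern GGGNNNNNCC, searched on both strands, was in all 9 of these promoters and in 45.8% of 32851 promoters. The stricter kappaB consensus, which is contained in the loose pattern, was in 6 of the 9 promoters (those of Nfkb2, Nfkbia, Rel and Traf3) and in 7.3% of all promoters. A match of letters is a description of the sequence and does not show a bound site. The stretches below are shown because a KDM2A peak overlapped each in all 6 KDM2A lists, and because they include the promoters with the fewest (Nfkbia) and the most (Traf3) CpGs of the 9. They are the bases directly before the gene start, 5′ to 3′ on the gene's strand, outside any annotated exon. For Nfkbia and Rel, capitals mark the kappaB consensus matches (overlapping matches are merged). For Traf3, capitals mark the CpGs, 49 in 250 bases against a median of 6 over all promoters.
Nfkbia (minus strand, chr12:55492648-55492897): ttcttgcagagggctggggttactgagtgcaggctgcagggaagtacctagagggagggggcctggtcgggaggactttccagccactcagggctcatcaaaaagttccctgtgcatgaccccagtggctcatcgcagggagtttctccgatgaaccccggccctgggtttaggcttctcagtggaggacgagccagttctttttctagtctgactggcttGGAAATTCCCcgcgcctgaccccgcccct
Rel (minus strand, chr11:23770971-23771219): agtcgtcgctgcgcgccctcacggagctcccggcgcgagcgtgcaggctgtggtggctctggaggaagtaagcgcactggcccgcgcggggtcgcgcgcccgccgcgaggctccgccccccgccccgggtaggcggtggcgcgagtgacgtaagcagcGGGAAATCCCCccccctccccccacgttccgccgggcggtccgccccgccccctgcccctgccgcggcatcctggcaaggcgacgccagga
Traf3 (plus strand, chr12:111166120-111166369): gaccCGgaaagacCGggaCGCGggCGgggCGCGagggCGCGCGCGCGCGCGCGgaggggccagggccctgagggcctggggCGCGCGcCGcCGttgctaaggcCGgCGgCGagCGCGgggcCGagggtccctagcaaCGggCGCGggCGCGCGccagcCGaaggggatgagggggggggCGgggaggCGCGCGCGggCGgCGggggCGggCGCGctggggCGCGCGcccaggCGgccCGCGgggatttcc
The Nfkbia stretch held 8 CpGs and the Rel stretch 37. H3K36me2 peaks touched the Nfkbia promoter in 1 of 6 lists and the Rel and Traf3 promoters in none.

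The peak lists differed in length, which bears on every comparison of genotypes. The KDM2A lists held 23372 to 29105 peaks in WT and 15387 to 21705 in KO. The H3K36me2 lists held 85387 to 94136 peaks in WT, 106720 in KO replicate 1, and 37447 and 45180 in KO replicates 2 and 3, and covered 113.7 to 145.1 Mb in WT against 39.4 to 98.9 Mb in KO. Read counts were not part of the lists, so the depth behind each list is unknown, and fewer called peaks and less of the mark cannot be told apart. Of 6 B cell marker genes, 5 had a KDM2A promoter peak in all 6 lists, against 1 of 5 T cell, 0 of 3 myeloid and 0 of 2 erythroid markers. Peaks are not transcript levels, so this compares only where KDM2A peaks lay. The lists held no readout of miR-155, so the genotype labels could not be checked in them. Nothing in the labels says whether the 3 libraries of a group came from separate cultures, so p-values measure the spread between these libraries.

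KDM2A peaks lay at all of these genes. Within 2 kb of an annotated transcription start site (TSS), all 10 genes had a KDM2A peak in all 6 lists, while 5786 of 21938 protein-coding genes did (26.4%). In single lists, 38.6 to 48.3% of all genes had such a peak. With TSSs of protein-coding transcripts only, 9 of the 10 genes had a peak in all 6 lists (25.3% of all genes), and with equal numbers of the strongest peaks 8 did (20.6% of all genes). With only peaks at -log10 q of at least 2 kept, 6 of the 10 genes (Traf2, Nfkb1, Nfkb2, Rela, Relb and Nfkbia) still had one in all 6 lists, as did 10.9% of all genes. Rel then had one in 5 lists, Cd40 in 4, Traf6 in 3 and Traf3 in 2. Across both genotypes, 57 of the 86 KDM2A peaks in the TSS windows ran over the gene start itself, 26 lay wholly downstream of it and 3 wholly upstream.

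**Figure D1:**
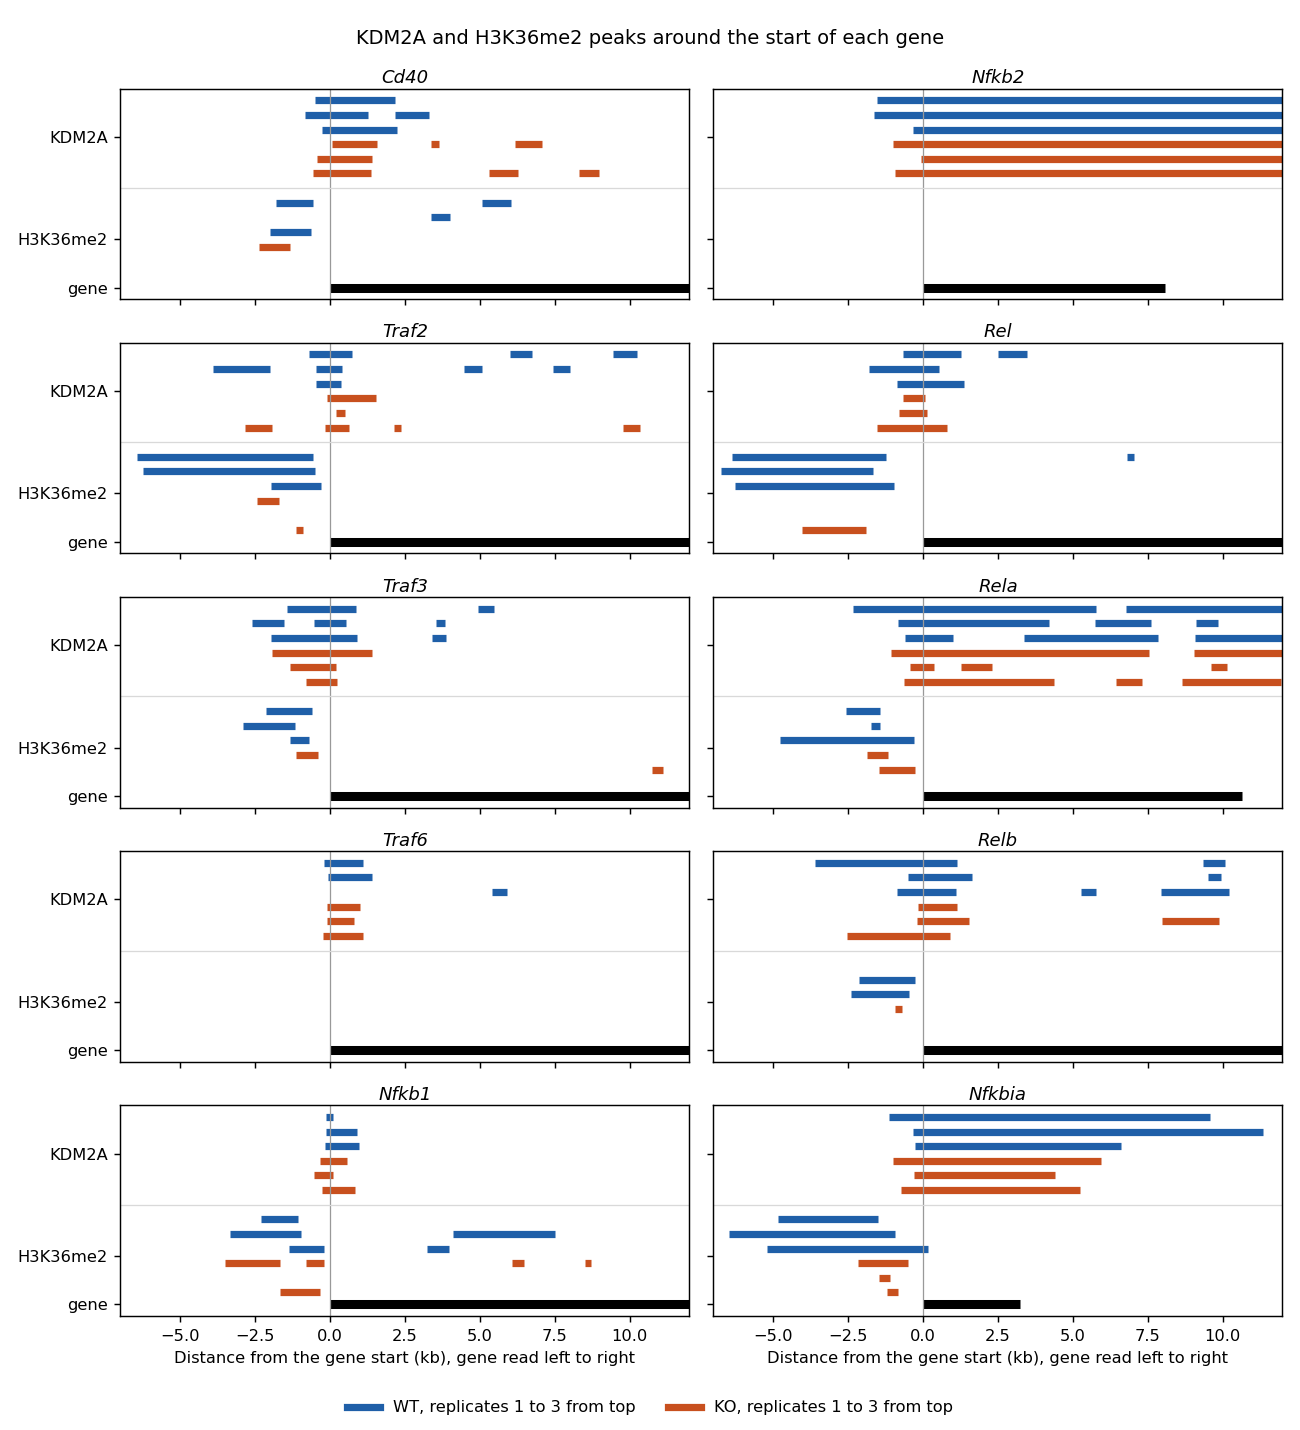
KDM2A (upper 6 rows) and H3K36me2 (lower 6 rows) peaks of each list around the start of each of the 10 genes, with distance from the gene start in kb on the x axis, WT in blue, KO in orange, and the gene as a black bar. Only peaks that touch the gene body or the 2 kb around a TSS are drawn, cut off at the panel edges. KDM2A peaks run over the gene starts except at Cd40 in KO replicate 1, Traf2 in KO replicate 2 and Traf6 in WT replicate 3. They are unbroken across Nfkb2 and Nfkbia. H3K36me2 peaks near the starts lie on the upstream side, and that of Nfkbia in WT replicate 3 reaches over the start.

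Nfkb2 and Nfkbia were the only ones of the 10 genes that KDM2A covered from end to end in every list. Nfkb2 encodes the precursor of the DNA-binding subunit of the non-canonical pathway. A single peak of 17841 to 20655 bp in WT and 14904 to 18173 bp in KO began before the Nfkb2 start and ran past the gene's end (merged over the lists, chr19:46302671-46323325), and covered 46.9 to 74.6% of the neighbouring gene Psd. At Nfkbia, which encodes the inhibitor IkB-alpha, 1 peak spanned the whole gene in every list, with widths of 10716, 11658 and 6863 bp in WT and 6930, 4730 and 6001 bp in KO (merged, chr12:55481308-55493790). KDM2A covered 100% of the gene body of both in all 6 lists, which held for 42 of 21938 protein-coding genes (0.191%). Of the 42, 2 genes were at least as long as Nfkb2 (8066 bp, itself included) and 17 at least as long as Nfkbia (3238 bp, itself included). Rela, the gene of the canonical transactivating subunit, was covered over 64.0 to 90.4% of its body in WT and over 85.9, 18.5 and 68.0% in KO. Among the remaining 7 genes the highest coverage of the body was 21%, at Relb in WT replicate 3. Outside these 3 genes, the widest peak over a gene start was 4721 bp, at Relb in WT replicate 1. The peak over the Nfkb1 start was 241 to 1123 bp wide and the merged interval was centred in an untranslated exon (chr3:135690591-135692068). That over the Rel start was 732 to 2362 bp wide (merged, chr11:23769618-23772782). At Traf6 the start peak (chr2:101678200-101679816) was in 5 lists, and in WT replicate 3 the only peak in the Traf6 windows lay in an intron near another annotated TSS (chr2:101683833-101684345).

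For the strength of these peaks, the highest fold over the local control reported for any peak in a gene's TSS windows was compared. Each peak has a single fold, so for the wide peaks of Nfkb2 and Nfkbia the value describes the whole peak and not the promoter alone. The median over the 10 genes was 3.34, 3.60 and 3.42 in the WT lists and 3.26, 3.16 and 3.36 in the KO lists. In each list it exceeded the median over all genes with a promoter peak in that list, which was 2.90 to 3.16. Those genes needed a peak in that list only, while the 10 genes had one in all 6. The TSS windows also differed in size, from 4001 bp at Rel to 25823 bp at Nfkb1, and a larger window offers more peaks to take the highest from. The order within the pathway was led by Nfkbia and Nfkb2, with a median percentile of 98.2 and 98.0 among genes with a promoter peak, followed by Rel at 93.1 and Relb at 84.1. Rela (79.8) and Traf2 (79.7) stood next to each other, followed by Nfkb1 at 74.8 and Cd40 at 56.4. Traf3 (30.8) and Traf6 (21.9) were lowest. The ranges of neighbours in this order overlapped across the 6 lists.

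**Figure D2:**
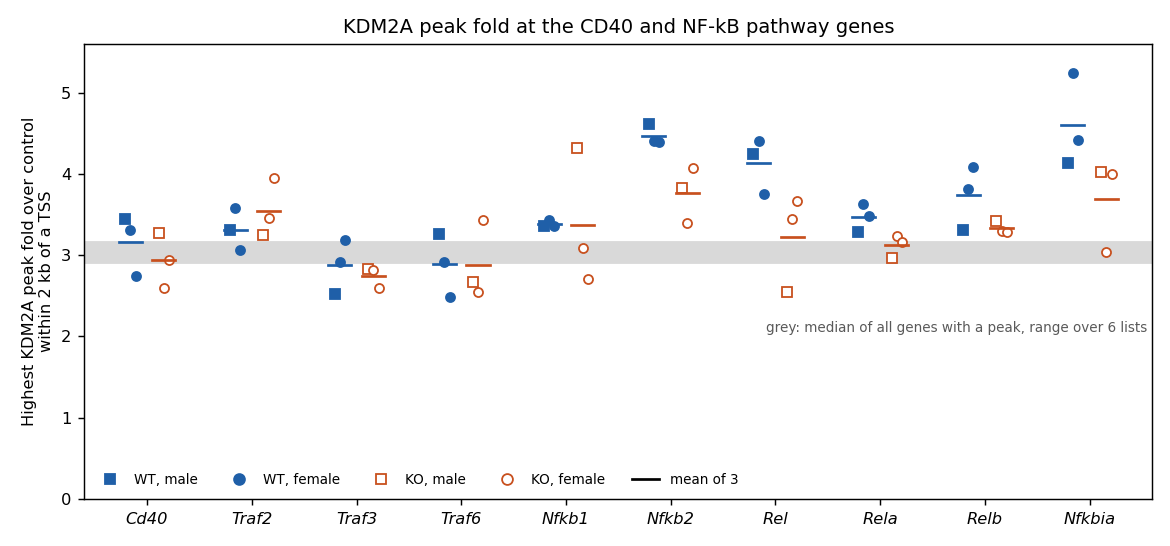
Highest KDM2A peak fold over control within 2 kb of a TSS (y axis, linear, from 0) for the 10 genes, with each point a list, squares male, circles female, WT filled, KO open, and bars the mean of 3. The grey band is the range over 6 lists of the median of all genes with a promoter peak. WT points of Nfkb2, Rel and Nfkbia sit at 3.75 or higher, and each is above all KO points of its gene.

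Comparing genotypes asked whether loss of miR-155 went with a change of KDM2A at these genes. In 3 of the 10 genes, all KO lists were lower than all WT lists after each list was centred on its median. Rel encodes c-Rel, a subunit with a prominent role in activated B cells. Its fold was 4.25, 4.41 and 3.75 in WT replicates 1 to 3 and 2.55, 3.44 and 3.67 in KO. The groups did not overlap, and the lowest value was the male KO list, in which Rel stood at percentile 5.3 while it stood at 89.8 or higher in the other 5 lists. For Nfkbia the WT lists gave a fold of 4.13, 5.24 and 4.42 and the KO lists 4.03, 3.03 and 4.00. The male lists were close together, while WT replicate 2 was the highest and KO replicate 2 the lowest of the 6. For Nfkb2 the WT lists gave 4.61, 4.40 and 4.40 and the KO lists 3.83, 3.40 and 4.07. The 3 WT lists were close together and above every KO list. Such a gap in the KO direction was found in 3 of 10 genes here and in 299 of 5786 genes with a peak in all 6 lists (5.17%), and the opposite gap in 0 of 10 here and in 5.2% of genes. Without centring, the count was 4 of 10, Rela being added, against a background of 10.1%. Without WT replicate 1, when 2 WT lists were set against 3 KO lists, it was 5 of 10 (Nfkb2, Rel, Rela, Relb and Nfkbia), against 10.0% of all genes. With equal numbers of the strongest peaks it was 2 of the 8 genes that then had a peak in all lists (Rel and Nfkbia), against 5.04% of all genes, and with -log10 q of at least 2 it was 2 of 6 (Nfkb2 and Nfkbia), against 5.38%.

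None of these differences passed the test across all genes. In limma, fitted on the log2 fold across all genes with a peak in the 6 lists, the KO minus WT difference was -0.31 ± 0.15 (SE, n = 3 and 3) for Rel, with a Benjamini-Hochberg adjusted p of 0.914. It was -0.26 ± 0.14 for Nfkbia (limma adjusted p = 0.914) and -0.19 ± 0.12 for Nfkb2 (limma adjusted p = 0.914). The limma call rate over all 5786 genes was 0 (0.0%), with 299 genes at an unadjusted p under 0.05, of which 1 was among the 10. Leaving out KO replicate 1 brought the Rel difference to -0.15, and leaving out KO replicate 2 brought that of Nfkbia to -0.14. An exact permutation test of 3 against 3 lists cannot go below p = 0.1. The median log2 difference was -0.07 over the 10 genes and 0.00 over all genes tested, and 6 of the 10 were below 0.

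The other 7 genes showed no such gap after centring. Rela had a fold of 3.29, 3.63 and 3.49 in WT and 2.96, 3.24 and 3.16 in KO, a log2 difference of -0.09 ± 0.11. Relb, the partner of the Nfkb2 product, had 3.31, 3.82 and 4.09 in WT and 3.42, 3.30 and 3.28 in KO (-0.10 ± 0.12). Both female WT lists were above every KO list, and the male WT list was not. Nfkb1, which encodes the precursor of the canonical DNA-binding subunit, had 3.36, 3.44 and 3.36 in WT and 4.32, 3.09 and 2.71 in KO (0.03 ± 0.15). The KO lists of Nfkb1 thus spanned both sides of a narrow WT range, and in KO replicates 2 and 3 its highest peak lay at an internal TSS. At the Nfkb1 start itself the KO values were 4.32, 2.73 and 2.495.

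Of the receptor and its adaptors, Cd40 had a fold of 3.44, 3.31 and 2.74 in WT and 3.28, 2.59 and 2.94 in KO, a log2 difference of -0.05 ± 0.12. Traf2 was the gene with the largest difference in the upward direction, with 3.31, 3.58 and 3.06 in WT and 3.24, 3.46 and 3.95 in KO (0.16 ± 0.12, limma adjusted p = 0.928). The Traf2 difference was 0.28 with a 1 kb window and 0.09 without KO replicate 3. Traf3 had 2.52, 2.92 and 3.19 in WT and 2.83, 2.81 and 2.60 in KO (0.00 ± 0.10), and Traf6 had 3.26, 2.92 and 2.48 in WT and 2.67, 2.55 and 3.43 in KO (0.06 ± 0.12). At all 4 genes the genotypes overlapped. In WT replicate 2 the values of Traf2 and Traf3 came from peaks upstream of the start, at -3899 to -1991 bp and -2591 to -1533 bp. The peaks over the start itself had a fold of 2.77 at Traf2 and 2.76 at Traf3 in that list.

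The extent of KDM2A at the gene starts showed no separation of genotypes for any of the 10 genes, against 1543 of 13330 genes with any coverage (11.6%) in which all KO lists were below WT. The largest mean difference in the share of TSS window bases under KDM2A peaks was at Rel, with 48.8, 58.6 and 55.6% in WT and 18.3, 22.9 and 59.0% in KO. KO replicate 3 was the highest of all 6 lists there, so the groups overlapped. Without KO replicate 3, Rel, Relb and Nfkb1 had lower coverage in both remaining KO lists than in all WT lists, which then held for 22.3% of all genes with any coverage. Over gene bodies, 1 of 10 genes had less KDM2A coverage throughout the KO lists, with no overlap with WT, against a background of 12.9%. This was Nfkb1, the longest of the 10 genes, with 5.01, 6.50 and 4.41% in WT and 1.54, 0.710 and 2.25% in KO. With the same number of the strongest peaks kept in each list, no gene of the 10 showed this, against 6.43% of all genes with any coverage, and with -log10 q of at least 2 it was Relb and not Nfkb1 (11.8% of all genes).

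Near the gene starts, H3K36me2 peaks lay on the upstream side, where genes at large also had more of the mark. Of 73 H3K36me2 peaks scored at the 10 genes over all lists, 35 lay further inside the gene bodies and 38 in the TSS windows. Of these 38 peaks, 35 lay wholly upstream of the gene start, 1 reached over it and 2 lay at downstream TSSs. Only 5 of the 38 touched another protein-coding gene, 4930595D18Rik, which spans the Traf3 start, in 4 lists and Clptm1 before Relb in 1. The KDM2A peaks in the Traf3 windows all touched 4930595D18Rik as well. In WT replicates 1 to 3, 7, 7 and 8 of the 10 genes had H3K36me2 coverage in the 2 kb upstream of the gene start, and 0, 0 and 1 had any in the 2 kb downstream. In KO replicates 1 to 3, 7, 2 and 4 had it upstream and 0 downstream. The single downstream case was Nfkbia in WT replicate 3, where a peak of 5371 bp ended 168 bp past the start. Among the 5786 genes with a KDM2A promoter peak in all 6 lists, 48.5 to 51.3% in WT and 43.4, 18.2 and 18.7% in KO replicates 1 to 3 had upstream coverage, and 32.4 to 36.7% in WT and 7.0 to 28.2% in KO had downstream coverage. Of those with any coverage in these 2 flanks, 63.0 to 75.2% had more of it upstream in each list. Among the 32 further pathway genes read for comparison, 28.1 to 43.8% had downstream coverage in WT and 3.1 to 31.2% in KO. For the 10 genes, the mean covered share upstream was 34.4, 34.0 and 55.3% in the WT lists, and in the KO lists it was 25.1, 8.13 and 10.2%. For those 5786 genes it was 22.0 to 24.1% in WT and 5.76 to 15.5% in KO. With the same number of the strongest peaks in each list, no downstream base of the 10 genes was covered in any list, while 14.5 to 17.3% of the 5786 genes in WT and 6.0 to 9.9% in KO had downstream coverage. The mean covered share upstream of the 10 genes was then 24.9, 25.4 and 19.4% in WT and 2.89% in KO replicate 1, all lower than with all peaks, and the same as with all peaks in KO replicates 2 and 3. Averaged over the 6 lists, upstream minus downstream was then 15.1 points, against 27.7 with all peaks. This split by side and its alternative were chosen after the peaks of the 10 genes had been seen, and the difference from other genes was not tested.

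**Figure D3:**
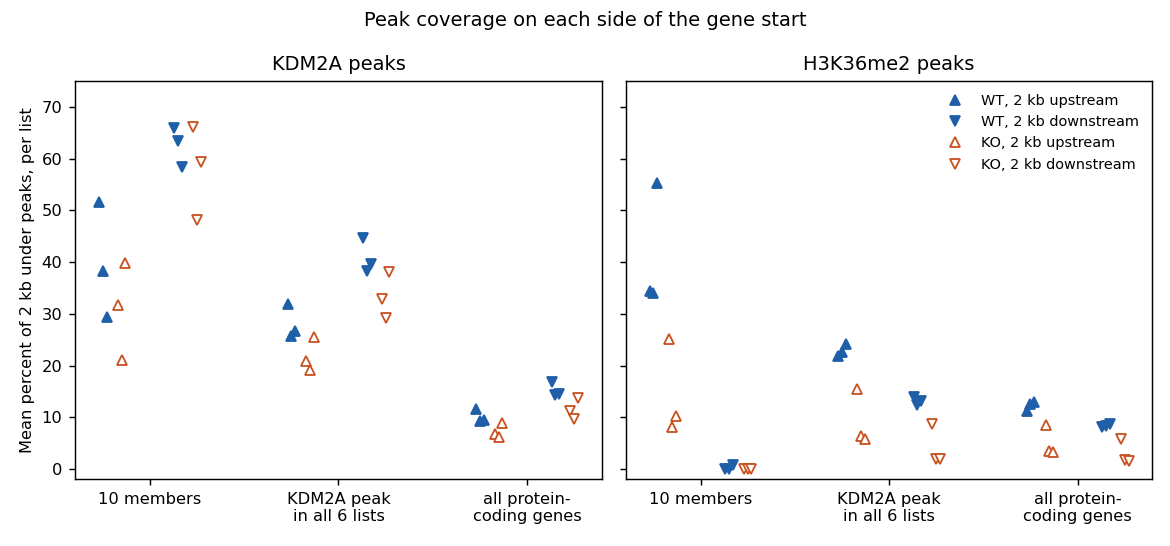
Mean percent of the 2 kb upstream (upward triangles) and downstream (downward triangles) of the gene start under KDM2A peaks (left) and H3K36me2 peaks (right), with 1 point per list, WT filled and KO open, for the 10 genes, genes with a KDM2A promoter peak in all 6 lists, and all protein-coding genes. For the 10 genes, H3K36me2 coverage is 8.13 to 55.3% upstream and 0 to 0.84% downstream, while KDM2A coverage is 21.1 to 51.7% upstream and 48.1 to 66.2% downstream.

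The bases shared by H3K36me2 and KDM2A peaks at these genes were counted without a comparison with other genes. Summed over the 10 genes, 6.8 to 11.8% of the bases under H3K36me2 peaks were also under KDM2A peaks of the same-numbered list in WT, and 0.0 to 12.2% in KO. The replicate numbers only label the lists here, since nothing shows that same-numbered KDM2A and H3K36me2 lists came from one culture.

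Fewer of these gene starts carried H3K36me2 in the female KO lists. Within 2 kb of a TSS, 7, 7 and 8 of the 10 genes had H3K36me2 coverage in WT and 7, 2 and 4 in KO, while 39.3 to 41.4% of all genes had it in WT and 38.6, 16.1 and 17.7% in KO. The low KO counts came with the short peak lists of KO replicates 2 and 3. With the same number of the strongest peaks in each list, the counts were 5, 6 and 3 in WT and 2, 2 and 4 in KO, and the groups overlapped.

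At Rel, an upstream H3K36me2 domain of 5154, 5084 and 5299 bp in WT (the first at chr11:23772194-23777347) was in KO only found in replicate 3, at 2139 bp. The share of the Rel window under H3K36me2 was 19.4, 8.30 and 25.6% in the WT lists and 0, 0 and 2.07% in the KO lists. Every KO list was below every WT list, and this also held with equal numbers of peaks. At Traf2, peaks of 5876 and 5745 bp in WT replicates 1 and 2 and 1663 bp in WT replicate 3 were matched in KO by 749 bp in replicate 1, no peak in replicate 2 and 237 bp in replicate 3. For Traf2 the covered share was 18.0, 18.6 and 20.7% in the WT lists against 3.66, 0 and 2.95% in the KO lists, a gap that was lost with equal numbers of peaks, where WT replicate 3 was at 0. Rel and Traf2 were the 2 of 8 genes with any coverage in which all KO lists were below WT, and 19.5% of all genes with any coverage were so. With a window of 1 kb only Traf2 remained (14.4% of all genes with any coverage), and with peaks at -log10 q of at least 2 neither did (2.99%). Nfkb2 and Traf6 had no H3K36me2 in their TSS windows in any list.

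The other 6 genes overlapped between genotypes. Nfkbia had H3K36me2 in all 6 lists, at 10.2, 22.2 and 44.8% of its window in WT and 30.8, 8.27 and 8.08% in KO. Relb had 0, 34.6 and 30.8% in WT and 5.05, 0 and 0% in KO. In both genes, the male lists were higher in KO and the female lists higher in WT. This did not hold with equal numbers of the strongest peaks, where Relb was at 0 in all lists but the male KO list, and Nfkbia was at 0 in both male lists and in WT replicate 3, below the female KO lists at 8.27 and 8.08%. Cd40 had 27.4, 0 and 17.0% in WT and 8.02, 0 and 0% in KO, and Traf3 had 17.3, 10.3 and 7.37% in WT and 8.91, 0 and 0% in KO. Rela had 7.48, 3.86 and 22.0% in WT and 9.16, 16 and 0% in KO. Nfkb1 had 3.61, 4.04 and 4.50% in WT and 4.26, 0 and 5.13% in KO.

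**Figure D4:**
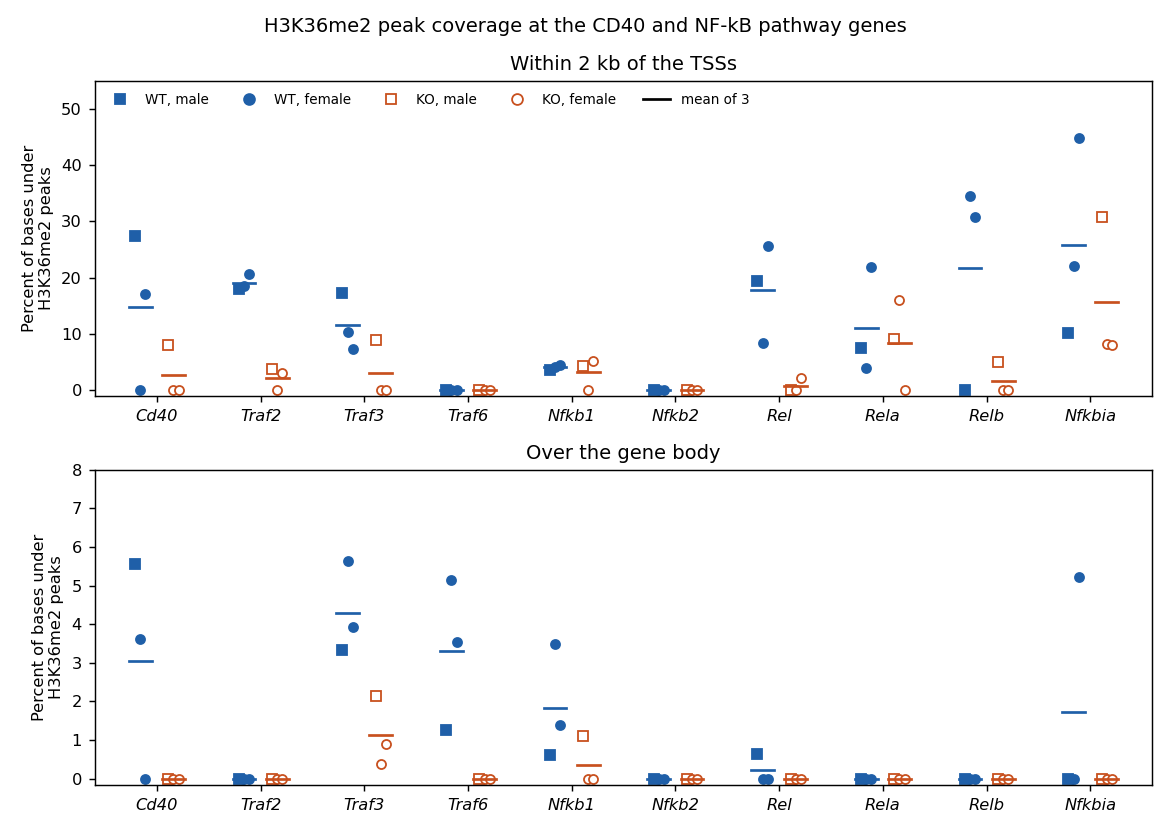
Percent of bases under H3K36me2 peaks within 2 kb of the TSSs (top) and over the gene body (bottom) for the 10 genes, with each point a list, squares male, circles female, WT filled, KO open, and bars the mean of 3. In the top panel, WT and KO points are apart for Traf2 and Rel. In the bottom panel no value exceeds 5.64%.

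Inside the gene bodies H3K36me2 coverage was low throughout. Traf2, Nfkb2, Rela and Relb had none in any list, and the highest value of the 10 genes was 5.64%, at Traf3 in WT replicate 2. The mean over the 10 genes was 1.14, 1.79 and 1.41% in the WT lists and 0.32, 0.04 and 0.09% in the KO lists, against 5.52 to 6.55% in WT and 1.26 to 4.71% in KO over all protein-coding genes. Traf3 had 3.32, 5.64 and 3.92% in WT and 2.13, 0.372 and 0.891% in KO. Traf6, which had no H3K36me2 peak in its TSS windows, had 1.27, 5.15 and 3.54% in WT and was listed at 0 in all KO lists. These were the 2 of 6 genes with any coverage in which all KO lists were below WT, against 22.9% of all genes with any coverage. Nfkb1 had 0.602, 3.48 and 1.38% in WT and 1.10, 0 and 0% in KO. Cd40 had 5.56 and 3.62% in WT replicates 1 and 2 and 0 elsewhere, Rel 0.651% in WT replicate 1 only, and Nfkbia 5.22% in WT replicate 3 only.

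The fit across genes took those at least 1 kb long with coverage in 3 or more of the 6 lists, 8615 genes in all, which 3 of the 10 genes passed. The KO minus WT difference was -3.32 ± 1.06 percentage points (SE, n = 3 and 3) for Traf6, with a limma adjusted p of 0.167. Traf6 passed the filter only through its 3 WT lists, so its difference could only be negative. The difference was -3.16 ± 1.29 for Traf3 (limma adjusted p = 0.181) and -1.45 ± 0.86 for Nfkb1 (limma adjusted p = 0.257). That of Nfkb1 was -0.62 without WT replicate 2. The median over all genes tested was -5.36 points, and 8035 of them were below 0. Genes entered by coverage in 3 or more lists, and KO replicates 2 and 3 were the shortest lists. This direction can therefore not be told apart from the filter and list length. No gene of the 8615 was called by limma (0.0%), with 2224 at an unadjusted p under 0.05. Without KO replicate 1, the longest H3K36me2 list, 694 genes were called, none of them among the 10, for which the lowest adjusted p was then 0.0929. With each H3K36me2 list cut to the same number of its strongest peaks, the Traf3 difference was 0.70 points, higher in KO, and Traf6 was at 0 in all lists.

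A further 32 genes of the pathway were read for comparison (12 adaptors and kinases, 9 inhibitors and brakes, 3 genes of the linear ubiquitin ligase and 8 target genes). Of these, 22 had a KDM2A promoter peak in all 6 lists, which was 8 of the 12 adaptors and kinases, 8 of the 9 inhibitors, 3 of the 3 ligase genes and 3 of the 8 targets. None was called between genotypes by limma (adjusted p 0.914 or higher), 11 were lower and 11 higher in KO, and the median log2 difference was 0.01. The largest differences downward were at Bcl2l1, an anti-apoptotic target (3.26, 3.89 and 3.80 in WT and 2.82, 3.08 and 2.67 in KO, -0.29 ± 0.12), Nfkbiz, an atypical inhibitor (-0.24 ± 0.13), and Tab1, an adaptor of the TAK1 kinase (-0.19 ± 0.14). The largest differences upward were at Traf5 (0.14 ± 0.12), Icam1 (0.13 ± 0.13) and Sharpin (0.13 ± 0.14). For H3K36me2 over the gene body, 18 of the 32 could be fitted, all 18 were lower in KO, and none was called. As over all genes, the direction of the 18 cannot be told apart from the coverage filter and list length. The median difference was -5.07 points, near the -5.36 over all genes, and the largest were at Cd80, a costimulatory ligand (-11.35 ± 6.82), Tab1 (-9.09 ± 2.82) and Bcl3, a nuclear IkB protein (-8.81 ± 3.41).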

How the data were processed

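ChIP-seq for KDM2A and for H3K36me2 was analysed in 12 libraries (3 per genotype and antibody). The 6 input libraries had no peak list and were used only through the control signal of the deposited peaks. Per the study's methods the authors used the nf-core/chipseq pipeline, with BWA as aligner, GRCm38 as genome and MACS2 as peak caller. The deposited lists have the broadPeak layout, and there is 1 per library. The MACS2 version is not given in the sources used here, and bedtools is named in the submitters' processing notes. The deposited values used were the ratio of signal to local control (fold) and -log10 q, both as the authors' peak caller wrote them. The deposited score column and -log10 p were not used. Depth is unknown, so no interval from counts was given.

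From the lists, the highest fold and the share of bases under peaks were computed within 2 kb of any GENCODE M21 TSS and over each gene body (Python 3.11.15, numpy 2.4.6, pandas 2.3.3). Genotypes were compared with limma 3.58.1 (R 4.3.3, trend, Benjamini-Hochberg adjusted p under 0.05) on log2 folds centred on each list's median, over genes with a peak in all 6 lists, and on percent of gene body covered, over genes of at least 1 kb with coverage in at least 3 lists. On simulated data made from these lists, 200 of 5786 genes shifted by 1 log2 unit were recovered in 97.5% of cases and by 0.5 in 47%, and 200 of 8615 genes shifted by 20 points of coverage in 35.5% and by 10 points in 7%. Promoter sequences came from RefSeq (GRCm38.p6). Named genes were the 10 members and, of the 32 further genes, the 3 with the largest differences in each direction in each fit. The members, lists and tests were chosen with earlier results of these data known. Alternatives were a 1 kb window, coding TSSs only, peaks at -log10 q of at least 2, equal numbers of the strongest peaks (15387 for KDM2A, 37447 for H3K36me2), no centring, ranks, looser filters, coverage relative to each list's total, bodies without the first 2 kb, a replicate block and leaving out each library.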

Additional observations from a re-analysis of the deposited data

Results flagged for a closer look

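Each genotype had 1 male and 2 female libraries per antibody. KO minus WT was taken between the male libraries and between all 4 pairs of female libraries, for the centred log2 KDM2A fold, KDM2A window coverage and H3K36me2 window coverage of the 10 genes. In 5 of 28 combinations of gene and measure with a value the male difference had the opposite sign to every female one. By measure this was 3 of 10 genes for KDM2A fold (16.5% of all genes), 0 of 10 for KDM2A window coverage (9.32%) and 2 of 8 for H3K36me2 window coverage (16.6%). With 1 male library per genotype and antibody, this difference between the sexes was not tested. At Nfkb1, the male KDM2A fold was 0.37 log2 units higher in KO and the mean female difference was -0.14. At Traf2 the male difference was -0.03 and the female 0.25, and at Relb they were 0.05 and -0.17. For H3K36me2 in the TSS windows, Relb was 5.05 points higher in KO males, with a female difference of -32.7 points. Nfkbia was 20.57 points higher in KO males, with a female difference of -25.32 points. The male KO H3K36me2 list was the longest of the 6 and the female KO lists the shortest. With equal numbers of the strongest peaks, neither H3K36me2 pattern was seen: Relb was at 0 in all 4 female lists, and Nfkbia was at 0 in both male lists.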

How the results depend on the processing

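The differences in KDM2A peak fold of Nfkb2, Rel, Rela, Relb and Nfkbia stayed below 0 and that of Traf2 above 0 under every alternative run for the fold (in log2 units with a library left out, Nfkb2 from -0.24 to -0.13, Rel from -0.41 to -0.15, Rela from -0.13 to -0.05 without KO replicate 1, Relb from -0.16 to -0.03 without WT replicate 3, Nfkbia from -0.33 to -0.14 and Traf2 from 0.09 to 0.22), and no gene of the 10 was called in any fit. Those near 0 changed sign: Nfkb1 (0.03 log2 units) was -0.01 with a 1 kb window or coding TSSs only, -0.03 without centring and -9.86 percentile points on ranks, and ran from -0.16 to 0.18 when 1 library was left out. Traf6 (0.06) was -0.01 without centring and ran from -0.07 to 0.17. Cd40 (-0.05) ran from -0.14 to 0.04, and Traf3 (0.00) from -0.07 to 0.08. Over gene bodies, Traf3 H3K36me2 was 0.70 points with equal numbers of peaks. The count of genes called was 0 for KDM2A throughout, and for H3K36me2 0 throughout except 694 without KO replicate 1 (leave-one-out range 0 to 694).

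A KDM2A peak in all lists was found in 9 of the 10 genes with coding TSSs (25.3% of all genes), 8 with equal numbers of peaks (20.6%) and 6 with -log10 q of at least 2 (10.9%). Counts of genes with all KO lists below WT moved as follows, with the share of all genes in brackets. For KDM2A fold, 3 (5.17%) became 2 with the stricter q (5.38%) or equal numbers (5.04%), and 3 to 5 with a library left out (9.32 to 10.6%). Without KO replicate 2 the 3 were Nfkb2, Rela and Nfkbia, so that Rel no longer showed the gap. For KDM2A window coverage, 0 (11.6%) became 1 with the 1 kb window, coding TSSs or the stricter q (10.4, 10.8 and 11.5%), and 0 to 3 with a library left out (15.1 to 22.3%). For KDM2A body coverage, 1 (12.9%, Nfkb1) became Relb in its place with the stricter q (11.8%), 0 with equal numbers (6.43%) and 1 to 3 with a library left out (16.1 to 23.8%). For H3K36me2 window coverage, 2 (19.5%) became 1 with the 1 kb window (14.4%), 0 with the stricter q (2.99%), 1 with equal numbers (8.69%) and 2 to 4 with a library left out (21.1 to 37.5%). For H3K36me2 body coverage, 2 (22.9%) became 0 with the stricter q (5.63%) and equal numbers (12.5%), and 2 to 3 with a library left out (23.8 to 47.4%). The causes of these shifts were not tested.

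The replicate numbers (1 male, 2 and 3 female) were not taken as pairs in the main fits. Deviations from the genotype means correlated at -0.09 to 0.06 for same-numbered libraries and at -0.08 to 0.11 for differently numbered ones. With so few libraries this cannot show whether they were paired. With a replicate block, 0 genes were called for either antibody. The lists differ in length and carry no read counts, so fewer called peaks and less signal cannot be told apart in the coverage values.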
